A study of Mus musculus with 6 samples.

Results

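Social isolation was compared with group housing in the 4 libraries of cohort 2, 2 from socially isolated (SI) males and 2 from group-housed (GH) males, out of 6 libraries in the series. The libraries were chosen by their labels alone, and they held 29290 of the 42595 nuclei kept in all 6. Each library was single-nucleus RNA-Seq (snRNA-Seq) of the prelimbic area (PL) of the medial prefrontal cortex, made from the pooled tissue of 3 male C57BL/6 mice that were not brothers. Within each housing condition, 1 library came from Run offspring, reared by dams that had a running wheel from soon after birth until weaning, and 1 from Sed offspring of dams in standard cages. Offspring had no wheel, and they were housed from weaning either with other males (RunGH, SedGH) or alone (RunSI, SedSI). The labels give the age as P21, that is 21 days, whereas the study's methods describe adult mice that had not been tested for behaviour, and the methods are followed here. The comparison therefore has 2 pairs, RunSI against RunGH and SedSI against SedGH, which share no library. It asks which genes isolation moves the same way in both maternal environments and which it moves in opposite ways. The other 2 libraries of the series, RunGH and SedGH of cohort 1, enter the fits of 6 libraries. Per the study, their mice had been through the tube test, a contest of dominance, and were chosen by rank.

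The PL is built of excitatory pyramidal neurons in layers and of inhibitory neurons that release GABA. Parvalbumin (PV) interneurons inhibit the soma of pyramidal neurons, somatostatin (SST) interneurons their dendrites, and VIP interneurons mostly inhibit other interneurons. Isolation after weaning is known to alter social behaviour, stress responses and myelination of the prefrontal cortex in rodents. Nuclear RNA holds many unspliced transcripts, and it therefore lies closer to transcription than the RNA of whole cells does.

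The SedGH library was the shallowest. It held 19134955 unique molecular identifiers (UMIs, each marking 1 captured RNA molecule), against 35993055 in SedSI, 62273299 in RunGH and 69344415 in RunSI. The median nucleus of SedGH held 1637 UMIs, whereas the other medians lay between 3396.5 and 4033. Numbers of nuclei were 9936 in RunGH, 8531 in RunSI, 5826 in SedGH and 4997 in SedSI, and any pair of these libraries shared between 8 and 19 barcodes. The summed level of the mitochondrially encoded genes in pyramidal nuclei was 2891 CPM (counts scaled to the same library total) in RunGH, 2899.7 in RunSI, 1111 in SedGH and 1514 in SedSI. Malat1, a nuclear RNA, took 92979, 93483, 113439 and 118087 CPM in the same order. Library totals and these RNA levels thus differed more between Run and Sed than between SI and GH, and the SedGH library stood apart.

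Nuclei were clustered on the 3000 most variable genes and classes were named from marker genes, so that every class name stands for nuclei like that type (PV-like, for example). Pyramidal nuclei, which express Slc17a7, the vesicular glutamate transporter, made up 78.5% of RunGH, 78.5% of RunSI, 84.1% of SedGH and 81.2% of SedSI. Layer classes are subsets of the pyramidal class, so that results in them are not independent of it. In each class, raw UMI counts were summed per library and scaled to CPM with the TMM method. A gene was called when its change passed edgeR's quasi-likelihood test with the maternal environment as a term, at a Benjamini-Hochberg adjusted p under 0.05. A gene moved alike when it differed by at least 1.3-fold the same way in both pairs, with the exact 95% interval for counting error off 0 in each, and moved in opposite directions when it did so with opposite signs. Each pair needed at least 50 counts. The test has 1 residual degree of freedom and each library is a pool. Its p-values therefore weigh the disagreement between 2 pairs and a spread that edgeR shares across genes, not the spread between mice. A lower sum in a class also cannot be told apart from fewer nuclei of a subtype that expresses the gene. Because the calls moved with the clustering of nuclei, the clustering was repeated from 4 other random seeds, a choice made after seeing the data, and each class is given with the range of its calls over the 5 clusterings. Values are those of the first clustering.

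In pyramidal neurons, 6 of 17069 genes passed the test (0.0352%), 5 of them lower and 1 higher in SI. Those lower were Glis3, a transcription factor, Adarb2, an RNA-binding protein of the ADAR family, Erbb4, the neuregulin receptor, Ndst4, an enzyme of heparan sulfate, and the non-coding 9630014M24Rik, and the gene higher was Zfp804b, a zinc finger gene. Over the 5 clusterings the count ran from 6 to 36, and the 6 genes were called in every one. Among the 13359 genes with enough counts, 48 moved alike (0.359%), 21 higher and 27 lower, while 69 moved in opposite directions (0.517%), and 47 and 69 of these did so in every clustering. Both called and alike were 4 genes. No called gene moved in opposite directions in any class. The test weighs the disagreement between the pairs, but some called genes, such as Nnat in layer 5, had ratios of opposite sign. The calls rest on the test, the libraries and the processing used. With free RNA subtracted or without the maternal term the count was 0, and with log-normalized clustering it was 1. In edgeR 733 genes had an unadjusted p under 0.05, DESeq2 called 0 (121 at an unadjusted p under 0.05), and a fit of all 6 libraries called 0, with RunGH, RunSI, SedGH or SedSI of cohort 2 left out or with all in. The 733 genes were 4.29% of those tested, below the 5% that the threshold would give with no change at all. The log2 changes of the 6 called genes kept their direction in the fit of 6 libraries, and 5 of them kept it with RunGH left out. The libraries that this fit adds, of cohort 1, are all group-housed, so that the SI side was the same.

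**Figure D1:**
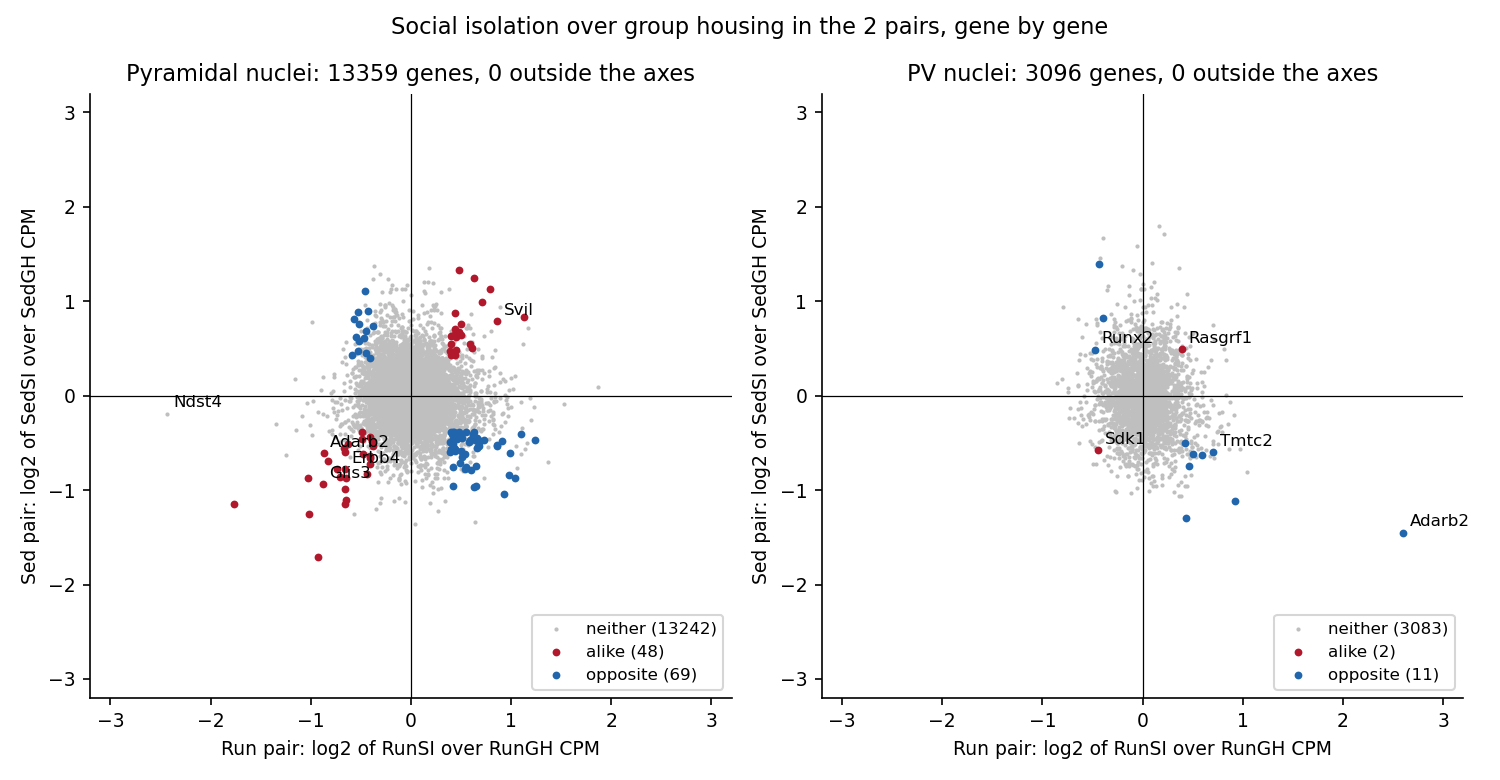
Log2 ratio of SI over GH in the Run pair (x axis) against the Sed pair (y axis) for genes with enough counts, with genes that move alike and in opposite directions marked. Genes that moved alike lie in the lower left and upper right corners, 27 lower and 21 higher in pyramidal neurons, and the 69 that moved in opposite directions lie in the other corners.

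Glis3, on chromosome 19 (28258851 to 28680077, minus strand, mm10), was at 33.6 CPM in RunGH, 18.3 in RunSI, 15.5 in SedGH and 8.07 in SedSI. Each SI library was lower than its own GH partner, but RunSI was above SedGH, since Glis3 was also higher in Run than in Sed. Its log2 change was -0.90 ± 0.12 (SE), with an adjusted p of 0.0239 (edgeR). Adarb2 (chromosome 13, 8202866 to 8768747, plus strand), a catalytically inactive relative of the RNA-editing enzymes and a marker of VIP and NPY interneurons, was at 42.5 CPM in RunGH, 23.3 in RunSI, 33.1 in SedGH and 21.7 in SedSI. Both GH libraries were above both SI libraries, and the log2 change was -0.76 ± 0.11 (adjusted p = 0.0239, edgeR). Without the small clusters that are described with the deep and unnamed layers the change of Adarb2 was -0.51 (adjusted p = 0.0896, edgeR), while that of Glis3 was -0.86 (adjusted p = 0.00982, edgeR).

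Erbb4 (chromosome 1, 68032186 to 69108059, minus strand), which encodes a receptor tyrosine kinase of neuregulins that is best known from interneurons, was at 28.4 CPM in RunGH, 18.1 in RunSI, 33.5 in SedGH and 19.5 in SedSI. The groups did not overlap, and the log2 ratio was -0.65 in the Run pair (95% interval -0.80 to -0.50) and -0.78 in the Sed pair (-1.01 to -0.55). The test gave a log2 change of -0.71 ± 0.11 with an adjusted p of 0.0281 (edgeR). The change was -2.53 with an adjusted p of 1.00 once the profile of free RNA was subtracted, and -0.54 with an adjusted p of 0.243 in thinned nuclei (edgeR). Subtraction lowers the counts and clips negative sums, so that the size of -2.53 cannot be set against -0.71. The 6 inhibitory markers other than Erbb4 summed in pyramidal nuclei to 20.6 CPM, without TMM scaling, in RunGH, 22.1 in RunSI, 18.6 in SedGH and 15.7 in SedSI. They were thus higher in SI in the Run pair and lower in the Sed pair. 9630014M24Rik was at 68.5 CPM in RunGH, 44.4 in RunSI, 66.2 in SedGH and 46.2 in SedSI, again with no overlap (log2 change -0.58 ± 0.09, adjusted p = 0.0276, edgeR).

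Of the remaining calls, Ndst4 was uneven over the pairs. Ndst4 was at 28.4 CPM in RunGH, 5.23 in RunSI, 2.67 in SedGH and 2.34 in SedSI, so that RunGH alone was high, with ratios of -2.44 in the Run pair and -0.19 in the Sed pair (adjusted p = 0.0243, edgeR). Most nuclei of a small cluster led by Ndst4, cluster 18 of the unnamed layer, also came from RunGH. Zfp804b was at 484 CPM in RunGH, 665 in RunSI, 569 in SedGH and 724 in SedSI, and both SI libraries were above both GH libraries. Its ratios were 0.46 and 0.35 and its adjusted p 0.0493 (edgeR).

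Other genes that moved alike and lower in pyramidal neurons lay just outside the threshold. Cdh9 (chromosome 15, 16728756 to 16857094, plus strand), a classic cadherin of neuronal contacts, was at 196 CPM in RunGH, 147 in RunSI, 166 in SedGH and 123 in SedSI, with no overlap of the groups and ratios of -0.41 and -0.43. Synpr, which encodes the vesicle protein synaptoporin, was at 86.0, 65.5, 111 and 79.7 CPM in the same order, and Megf11, a transmembrane protein of neuronal spacing, at 41.7, 31.4, 75.4 and 45.7. The adjusted p of each was 0.0648 (edgeR), as it was for Phactr2, a regulator of phosphatase and actin (31.6, 19.8, 23.8 and 16.2 CPM), and all 4 were called in 4 of the 5 clusterings. In each of these genes both SI libraries were below their partners. Fign, encoding the microtubule-severing protein fidgetin, was at 9.52, 4.66, 4.70 and 2.57 CPM and was called in 3 clusterings (adjusted p = 0.0918, edgeR).

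Among genes alike and higher, the non-coding 1700023F02Rik was at 3.90 CPM in RunGH, 8.51 in RunSI, 3.74 in SedGH and 6.66 in SedSI (adjusted p = 0.0666, edgeR). Svil, encoding supervillin, which links actin to membranes, was at 7.80, 14.2, 5.66 and 9.76 CPM in the same order (adjusted p = 0.0648, edgeR). In both genes the SI libraries were the 2 highest, and each was called in 4 of the 5 clusterings. The change of Svil was 0.33 (adjusted p = 1.00, edgeR) without the small clusters. Npsr1, the receptor of neuropeptide S and a gene used here to name layer 5, was at 33.4, 15.7, 21.3 and 18.4 CPM, with most of the difference in the Run pair, and was called in 1 clustering (adjusted p = 0.144, edgeR).

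In the annotation, 7 other gene models lie on the strand of Erbb4 within its body, 3 within Adarb2 and 1 within Glis3, and how reads there were divided is uncertain. Counts were made over exons and introns on the sense strand. Because Glis3, Adarb2 and Erbb4 were called in all pyramidal neurons and Cdh9 in 3 layer classes, their promoters are shown, from 250 bases before to 50 bases after the start in RefSeq (GRCm38.p6), 5′ to 3′, with every GC box (GGGCGG or CCGCCC) in capitals.
Glis3 (chr19:28680028-28680327, minus strand): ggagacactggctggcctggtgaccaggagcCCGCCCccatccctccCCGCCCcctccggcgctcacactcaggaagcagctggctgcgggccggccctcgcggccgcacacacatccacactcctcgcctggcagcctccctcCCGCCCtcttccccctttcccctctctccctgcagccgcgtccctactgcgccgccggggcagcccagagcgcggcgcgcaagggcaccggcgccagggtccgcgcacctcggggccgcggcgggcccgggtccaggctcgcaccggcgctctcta
Adarb2 (chr13:8202616-8202915, plus strand): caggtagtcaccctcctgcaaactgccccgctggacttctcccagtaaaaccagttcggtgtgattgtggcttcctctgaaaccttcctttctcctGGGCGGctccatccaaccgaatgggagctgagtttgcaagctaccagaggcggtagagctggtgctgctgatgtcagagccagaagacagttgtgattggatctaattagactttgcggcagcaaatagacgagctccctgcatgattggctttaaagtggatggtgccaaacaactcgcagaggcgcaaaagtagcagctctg
Erbb4 (chr1:69108010-69108309, minus strand): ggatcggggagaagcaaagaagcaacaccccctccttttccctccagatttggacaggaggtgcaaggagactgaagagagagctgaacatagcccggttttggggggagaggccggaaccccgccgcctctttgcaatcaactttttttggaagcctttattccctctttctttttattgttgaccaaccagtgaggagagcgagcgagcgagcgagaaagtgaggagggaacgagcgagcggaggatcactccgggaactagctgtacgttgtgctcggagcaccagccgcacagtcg
Cdh9 (chr15:16728665-16728964, plus strand): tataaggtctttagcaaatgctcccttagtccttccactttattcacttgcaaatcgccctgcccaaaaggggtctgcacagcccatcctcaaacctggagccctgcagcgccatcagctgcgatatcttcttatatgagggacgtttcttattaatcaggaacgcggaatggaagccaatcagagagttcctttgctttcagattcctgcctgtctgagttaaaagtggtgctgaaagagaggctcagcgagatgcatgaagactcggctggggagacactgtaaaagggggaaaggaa
The promoter of Glis3 held 3 GC boxes and that of Adarb2 held 1, whereas those of Erbb4 and Cdh9 held none. A GC box lies in 35.7% of all 32851 promoters of this length. None of the 4 held a cAMP response element (TGACGTCA, in 1.79% of all promoters) or an E box (CACGTG, in 7.15%), both searched on either strand. The share of G and C was 76.3% in Glis3, 55.3% in Erbb4, 52.7% in Adarb2 and 48.7% in Cdh9.

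Over the 7 layer classes 196 genes were called in at least 1, and 33 were called in more than 1, of which 19 were lower in each and 11 higher in each. Erbb4 and Sorcs3, a sorting receptor at synapses, were called lower in 4 classes, and Cdh9, Tox, Tafa1 and 9630014M24Rik in 3. Col23a1, a transmembrane collagen, was called higher in 4. The classes share libraries, and the counts do not show that the layers differ. The calls of the layers rest on the test as those of all pyramidal nuclei do: without the maternal term no layer class had a call, the fit of 6 libraries called only Adarb2 in the unnamed layer, and DESeq2 called 5 genes in the deep layer class and Adarb2 in the unnamed layer. In all 3, which rest on the same SI libraries and so give no independent support, the called genes of each layer class kept their direction. Without the maternal term, for example, the median absolute log2 change was 0.818 over the 84 called genes of the deep layer class, 0.701 over the 88 of the unnamed layer and 0.808 over the 36 of layer 5.

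**Figure D2:**
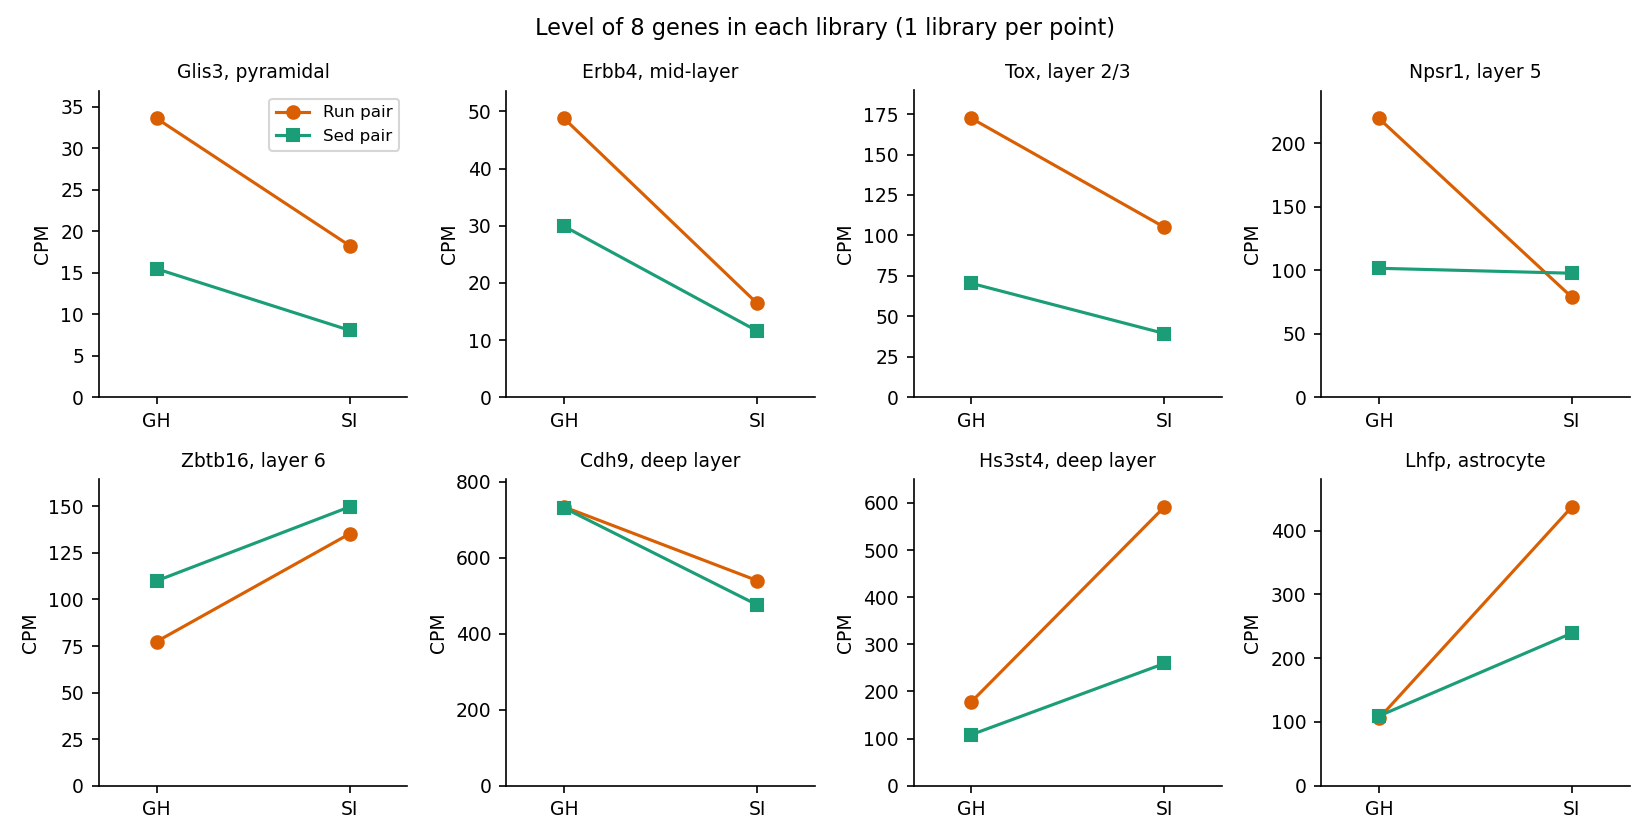
TMM-scaled CPM (y axis, from 0) of Glis3, Erbb4, Tox, Npsr1, Zbtb16, Cdh9, Hs3st4 and Lhfp in the class named above each panel, 1 point per library, with lines joining the GH and SI library of each pair. Erbb4 in the mid-layer class falls from 48.8 to 16.4 CPM in the Run pair and from 29.9 to 11.6 in the Sed pair, while Npsr1 in layer 5 falls in the Run pair and stays near 100 CPM in the Sed pair (102 and 97.7).

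In the mid-layer class (marked by Rorb and Scn7a), 9 of 12769 genes passed the test (0.0705%), 2 higher and 7 lower. Erbb4 was the only one of them called in all 5 clusterings, over which the count ran from 1 to 14. In thinned nuclei the count was 0, and with plain library totals it was 2, both lower, with Erbb4 among them. Erbb4 was at 48.8 CPM in RunGH, 16.4 in RunSI, 29.9 in SedGH and 11.6 in SedSI, from 280, 80, 49 and 34 counts. Each GH library was above each SI library, with ratios of -1.57 (95% interval -1.95 to -1.21) and -1.37 (-2.04 to -0.71) and a log2 change of -1.51 ± 0.18 (adjusted p = 1.22e-09, edgeR). With cohort 1 added to the fit the change was -1.50 and the adjusted p 0.0991 (edgeR), and under DESeq2 the adjusted p was 0.696. With free RNA subtracted the change was -5.28 (adjusted p = 1.7e-33, edgeR). The subtraction lowers these small counts and sets negative sums to 0, which can enlarge a ratio. The size of -5.28 therefore cannot be read as a stronger change than -1.51. Because Erbb4 is itself an inhibitory marker, the other 6 inhibitory markers were summed in the same nuclei, and they gave 21.6 plain CPM in RunGH, 17.5 in RunSI, 24.7 in SedGH and 13.2 in SedSI. Those markers were thus also lower in each SI library than in its partner, and their part in the Erbb4 result was not tested.

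In PV and SST interneurons, where Erbb4 is abundant, it was not called. In PV nuclei it was at 10497 CPM in RunGH, 10645 in RunSI, 11558 in SedGH and 11202 in SedSI, with ratios of 0.02 and -0.05. In SST nuclei the ratios were -0.04 and 0.11. In layer 6, Erbb4 was at 20.9, 18.1, 14.5 and 40.3 CPM in the order RunGH, RunSI, SedGH and SedSI, so that SedSI was the highest library there (ratio 1.48, from 15 and 87 counts). The 6 other inhibitory markers summed there to 17.8 plain CPM in RunGH, 25.6 in RunSI, 11.2 in SedGH and 22.8 in SedSI, also higher in SedSI than in SedGH, and their part was not tested.

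**Figure D3:**
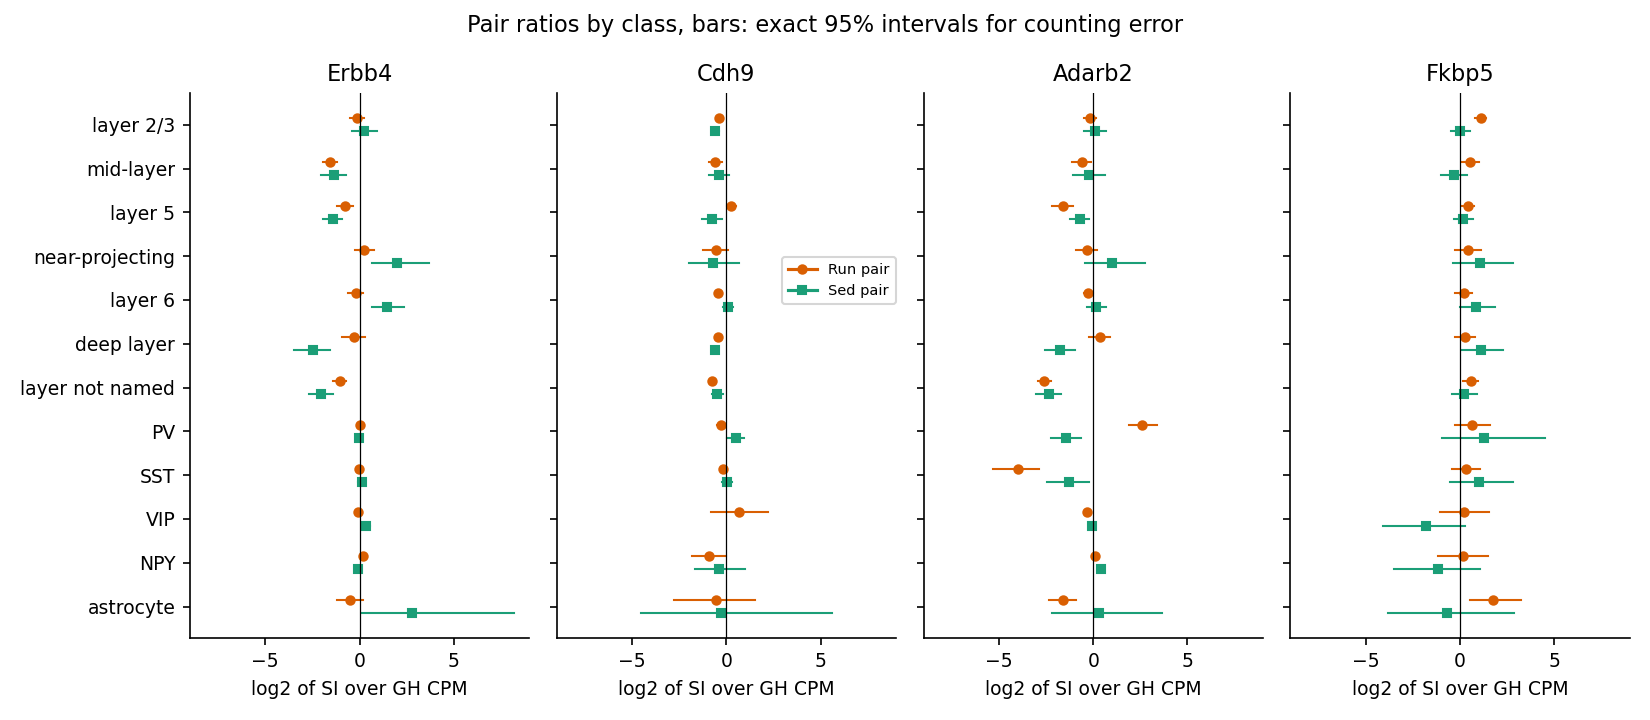
Log2 ratio of SI over GH (x axis) of Erbb4, Cdh9, Adarb2 and Fkbp5 by class (y axis), with 1 point per pair and its 95% counting interval. Cdh9 in VIP nuclei has no point for the Sed pair, since SedGH held 0 counts there. Erbb4 lies below 0 in both pairs in the mid-layer, layer 5 and unnamed layer classes and near 0 in PV nuclei (0.02 and -0.05).

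The other calls of the mid-layer class included Tafa1, which encodes a small secreted protein, at 1359 CPM in RunGH, 1068 in RunSI, 1510.3 in SedGH and 1031 in SedSI (adjusted p = 0.000179, edgeR, called in 4 of 5 clusterings). Inf2, a formin that shapes actin, fell from 20.2 to 10.7 CPM in the Run pair and from 31.7 to 17.1 in the Sed pair (adjusted p = 0.0275, edgeR, called in 3). Both GH libraries were above both SI libraries in Tafa1, and in Inf2 as well. The non-coding 4930415C11Rik rose from 49.3 to 81.6 and from 69.6 to 99.4 CPM (adjusted p = 0.0043, edgeR, called in 4). Of 8550 genes with enough counts, 33 moved alike (0.386%), 17 higher and 16 lower, and 26 in opposite directions (0.304%). Esrrg, an orphan nuclear receptor of energy metabolism, was among those alike and higher, at 40.1, 55.7, 39.1 and 63.8 CPM in RunGH, RunSI, SedGH and SedSI, with no overlap and without passing the test (adjusted p = 0.119, edgeR).

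In layer 2/3 (marked by Cux2 and Otof), 14 of 13517 genes passed (0.104%), 12 of them lower. The count ran from 14 to 44 over the clusterings, and 10 genes were called in all 5. In thinned nuclei 9 passed, 6 of them among the 14. Tox, a DNA-binding protein of the HMG box family, was at 172 CPM in RunGH, 105 in RunSI, 70.4 in SedGH and 39.4 in SedSI, and Glis3 at 123, 76.3, 55.0 and 29.1. For both genes each SI library was below its partner and the groups overlapped, since Run was above Sed. Their log2 changes were -0.76 ± 0.13 (adjusted p = 3.8e-05, edgeR) and -0.76 ± 0.14 (adjusted p = 6.35e-05, edgeR). Cdh9 was at 274 CPM in RunGH, 210.0 in RunSI, 222 in SedGH and 149 in SedSI (adjusted p = 0.0218, edgeR), and Tafa1 at 2191, 1628, 2477 and 1802 (adjusted p = 0.00168, edgeR), with no overlap in either.

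Tmtc1, Penk, Palld and Zfp804b were also called in layer 2/3 in every clustering. Tmtc1, a mannosyltransferase, was at 133 CPM in RunGH, 85.5 in RunSI, 136 in SedGH and 101 in SedSI (adjusted p = 0.00942, edgeR). Penk, the precursor of enkephalin, fell from few counts, at 8.18, 2.14, 3.52 and 1.67 CPM (adjusted p = 0.0123, edgeR), and Palld, an actin-bundling protein, at 16.6, 6.56, 11.9 and 2.62 (adjusted p = 3.8e-05, edgeR). In all 3 both SI libraries were below both GH libraries. Penk is also among the markers used here for VIP interneurons, and their part was not tested. Zfp804b rose from 191 to 292 and from 212 to 291 CPM, with no overlap (adjusted p = 0.00168, edgeR).

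Fkbp5, the co-chaperone that is induced through the glucocorticoid receptor, missed the threshold in layer 2/3. It was at 18.8 CPM in RunGH, 39.9 in RunSI, 23.3 in SedGH and 23.4 in SedSI. RunSI alone was high, with a ratio of 1.09 (95% interval 0.79 to 1.39) in the Run pair and 0.00 (-0.49 to 0.51) in the Sed pair, and the adjusted p was 0.0505 (edgeR). In all pyramidal nuclei the ratios of Fkbp5 were 0.65 and 0.21 (adjusted p = 0.39, edgeR). In layer 2/3, 23 of 9731 genes moved alike (0.236%) and 61 in opposite directions (0.627%). Among those alike were Ciart, a clock repressor, higher in SI (6.90, 10.3, 7.04 and 13.1 CPM in RunGH, RunSI, SedGH and SedSI), and Gabrg1, a GABA-A receptor subunit, lower in SI (16.6, 8.98, 13.6 and 7.40 CPM), neither of which was called.

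In layer 5 (marked by Parm1, Chst8 and Npsr1), 36 of 11953 genes passed (0.301%), 19 lower and 17 higher. The count ran from 17 to 36, and 17 were called in every clustering, 12 lower and 5 higher, to which the called genes named here belong. With doublets removed only 9630014M24Rik passed in place of 36 genes (log2 change -1.11, adjusted p = 0.0087, edgeR), although all 36 kept their direction with a median absolute log2 change of 0.926. In thinned nuclei 15 genes passed, 11 of them among the 36. The non-coding 9630014M24Rik was at 92.4 CPM in RunGH, 40.5 in RunSI, 74.3 in SedGH and 37.1 in SedSI, with no overlap (log2 change -1.12 ± 0.15, adjusted p = 6.87e-11, edgeR). Stxbp6, which binds SNARE proteins of vesicle fusion, was at 579.9, 339.6, 446 and 338 CPM (adjusted p = 1.28e-05, edgeR), and Maml3, a coactivator of Notch, at 136, 91.7, 148 and 98.6 (adjusted p = 0.00105, edgeR), and again both GH libraries were higher. Alk, a receptor tyrosine kinase, fell from 45.2 to 25 CPM in the Run pair and from 77.8 to 50 in the Sed pair (adjusted p = 0.00126, edgeR), so that SedSI stayed above RunGH.

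Erbb4 and Adarb2 were called in layer 5 as well. Erbb4 was at 26.5 CPM in RunGH, 15.5 in RunSI, 71.4 in SedGH and 26.6 in SedSI (adjusted p = 4.78e-05, edgeR), and Adarb2 at 22.9, 7.39, 49.0 and 29.8 (adjusted p = 0.000191, edgeR), and in both SedGH was the highest library. The 6 inhibitory markers other than Erbb4 summed there to 20.1 plain CPM in RunGH, 15.5 in RunSI, 19.4 in SedGH and 18.4 in SedSI. They were lower in each SI library than in its partner, without the high level of SedGH, and their part was not tested. Among the genes that rose, Dgkg, a diacylglycerol kinase, went from 212 to 363 and from 214 to 278 CPM (adjusted p = 4.94e-05, edgeR), and Sec24d, a coat protein of transport vesicles, from 17.3 to 37.0 and from 18.9 to 34.8 (adjusted p = 0.000665, edgeR). Both were higher in each SI library than in each GH library.

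Other layer 5 calls differed mainly in the Run pair. Npsr1 was at 219.7 CPM in RunGH, 78.8 in RunSI, 102 in SedGH and 97.7 in SedSI, and Nnat, an imprinted gene of calcium handling, at 16.8, 89.7, 25.2 and 16.5. RunGH alone was high in Npsr1 and RunSI alone in Nnat, with ratios of -1.48 and 2.41 in the Run pair against -0.06 and -0.61 in the Sed pair. Of 7479 genes, 29 moved alike (0.388%), 22 of them lower, and 40 in opposite directions (0.535%). Pcsk1, a prohormone convertase that activity induces, was among those alike and lower, at 39.7 CPM in RunGH, 27.5 in RunSI, 67.9 in SedGH and 49.5 in SedSI, and did not pass the test (adjusted p = 0.255, edgeR).

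In layer 6 (marked by Foxp2 and Syt6), 9 of 12225 genes passed (0.0736%), 6 of them higher, and all 9 were called in every clustering, over which the count ran from 9 to 50. It was 47 with plain library totals, the 9 included, and 19 in thinned nuclei, with 6 of the 9. Zbtb16, a zinc finger repressor that glucocorticoids induce, was at 77.4 CPM in RunGH, 135 in RunSI, 110.0 in SedGH and 149.7 in SedSI. Both SI libraries were above both GH libraries, and the log2 change was 0.67 ± 0.12 (adjusted p = 0.026, edgeR). Lhfpl3, a tetraspan membrane protein, rose from 142 to 239.9 and from 169 to 212 CPM (adjusted p = 0.0374, edgeR), with no overlap. It is also a marker of oligodendrocyte precursors, whose share of all nuclei was 1.48 and 2.33 times as high in SI in the pairs, and their part was not tested. Tox was at 798, 600.1, 908 and 621 CPM in RunGH, RunSI, SedGH and SedSI (adjusted p = 0.0201, edgeR), and Ptchd4, of the patched domain family, at 41.8, 18.5, 33.8 and 21.3 (adjusted p = 0.0374, edgeR). Both were lower in each SI library than in each GH library.

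In other layer 6 genes most of the difference lay in the Run pair. Dpyd, a pyrimidine-degrading enzyme, Nnat, Shisa6, an auxiliary subunit of AMPA receptors, and Spag16, a protein of the sperm axoneme, were called higher with ratios of 1.58, 1.42, 1.60 and 2.29 in the Run pair, against 0.23, 0.47, 0.27 and -0.32 in the Sed pair. Eya4, a transcriptional coactivator, was the remaining call, lower at 31.7, 9.67, 15.4 and 8.81 CPM in RunGH, RunSI, SedGH and SedSI. Eya4 is also among the markers used here for PV interneurons, and their part was not tested. Fstl4, a follistatin-like secreted protein, was at 82.2, 46.2, 77.2 and 54.7 CPM in the same order, with both SI libraries lower, and missed the threshold (adjusted p = 0.0516, edgeR). Of 7286 genes, 38 moved alike (0.522%), 25 of them lower, and 20 in opposite directions (0.274%). Mbp, a myelin gene, was among those alike and higher (30.1, 42.4, 35.7 and 52.8 CPM). Oligodendrocyte markers, Mbp included, summed in layer 6 to 73.3, 83.8, 57.8 and 70.7 plain CPM in RunGH, RunSI, SedGH and SedSI, and the share of oligodendrocytes among all nuclei was 1.25 and 4.75 times as high in SI in the pairs, and their part was not tested. Cdh10 and Gabra2, a cadherin and a GABA-A receptor subunit, were among those alike and lower in layer 6.

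The near-projecting class (marked by Tshz2 and Vwc2l) had no call among 9124 genes in edgeR (0%), with 434 genes (4.76%) at an unadjusted p under 0.05. It had none in DESeq2 (5 at an unadjusted p under 0.05). Over the clusterings the count ran from 0 to 4, and with doublets removed it was 10. Only 3 of 3491 genes moved alike (0.0859%), Cntnap4, Skap1 and Zswim8, and 6 in opposite directions (0.172%). Cntnap4, a contactin-associated protein, was at 69.1 CPM in RunGH, 143 in RunSI, 45.7 in SedGH and 85.1 in SedSI, with both SI libraries higher. Cntnap4 is also among the markers used here for PV interneurons, and their part was not tested.

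The deep layer class (marked by Oprk1, Rxfp1 and Ccn2) had 84 calls among 11162 genes (0.753%), 66 higher and 18 lower. The count ran from 84 to 90 over the clusterings, and 47 genes were called in all 5, 39 higher and 8 lower. In nuclei thinned to 1000 UMIs only Hs3st4 passed (adjusted p = 0.00298, edgeR). Among those that rose was Hs3st4, an enzyme of heparan sulfate and a marker of deep corticothalamic neurons, at 178 CPM in RunGH, 592 in RunSI, 108 in SedGH and 259 in SedSI (adjusted p = 1.59e-32, edgeR). Svil was at 20.3, 63.2, 3.87 and 45.8 CPM (adjusted p = 2.29e-12, edgeR), and Tle4, a corepressor of layer 6 neurons, at 43.7, 102, 25.8 and 88.9 (adjusted p = 3.89e-11, edgeR). In each of the 3 genes both SI libraries were above both GH libraries.

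A small cluster moved with the genes that rose in the deep layer class. Cluster 17 had 36 nuclei in RunGH, 131 in RunSI, 11 in SedGH and 28 in SedSI, and was led by Olfr111, Svil, Ccn2 and Atp10a. Its share of nuclei was 4.24 times as high in RunSI as in RunGH (95% interval 2.91 to 6.31) and 2.97 times as high in SedSI as in SedGH (1.43 to 6.61). Without it the log2 change of Hs3st4 was -0.06 in place of 1.57, and 7 genes passed in place of 84, 6 of them among the 84. Foxp2, the transcription factor that marks corticothalamic neurons, was at 14.4 CPM in RunGH, 76.0 in RunSI, 15.5 in SedGH and 13.0 in SedSI, high in RunSI alone. RunSI held the most nuclei of this cluster (131), whereas SedSI, with 28, had the lowest Foxp2, and the part of the cluster was not tested.

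Genes that fell in the deep layer class included Cdh9, Megf11 and Bmpr1b, a receptor of bone morphogenetic proteins, each called in every clustering. Cdh9 was at 734 CPM in RunGH, 539.9 in RunSI, 731 in SedGH and 476 in SedSI, with no overlap (log2 change -0.52 ± 0.10, adjusted p = 0.000103, edgeR). Without cluster 17 its change was -0.36 with an adjusted p of 0.211, while that of Megf11 (127, 75.3, 162 and 82.1 CPM) was -0.69 with an adjusted p of 0.00376 (edgeR). Bmpr1b was at 253, 191, 236 and 130.0 CPM (adjusted p = 0.00136, edgeR). Erbb4 was at 19.5, 15.7, 52.9 and 9.58 CPM (adjusted p = 0.0122, edgeR), with SedGH far above the others. The 6 other inhibitory markers summed to 23.4, 21.4, 13.5 and 8.49 plain CPM in RunGH, RunSI, SedGH and SedSI. They were lower in each SI library than in its partner, but SedGH was below both Run libraries, and their part was not tested.

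Inhba, an activity-induced subunit of activin, fell in the deep layer class too. It was at 26.5 CPM in RunGH, 14.7 in RunSI, 46.4 in SedGH and 21.2 in SedSI (adjusted p = 0.0219, edgeR, called in 4 of 5 clusterings). Bdnf, a growth factor that activity induces, was at 37.4, 25.2, 42.5 and 22.6 CPM and did not pass the test (adjusted p = 0.21, edgeR). For both, each GH library was above each SI library, but leaving out cluster 17 took Inhba to an adjusted p of 0.329 (edgeR). Of 6068 genes, 52 moved alike (0.857%), 37 of them higher, and 30 in opposite directions (0.494%).

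A further class, led by Il1rapl2, Nell1 and Deptor, reached the threshold for naming of no layer and is called the unnamed layer. Layer 5, whose markers include Deptor, was the nearest match of its largest cluster. Those markers stood there at a mean of 0.27 of their highest level in any pyramidal cluster, where 0.3 was needed. In the unnamed layer, 88 of 13109 genes passed (0.671%), 23 higher and 65 lower. The count ran from 15 to 88 over the clusterings, however, and only 6 genes were called in all 5. In thinned nuclei 19 passed, 18 of them among the 88. Of the 6, 9630014M24Rik was at 67.2 CPM in RunGH, 41.4 in RunSI, 76.6 in SedGH and 49.0 in SedSI (adjusted p = 0.000155, edgeR). Inf2 was at 44.6, 22.9, 53.2 and 35.4 CPM (adjusted p = 0.000126, edgeR), and Pde4b, a phosphodiesterase of cAMP, at 977, 713, 1030.5 and 743 (adjusted p = 8.49e-05, edgeR). All 3 were lower in both SI libraries than in both GH libraries. Zfp804b was at 848, 1433, 1045 and 1339.9 CPM (adjusted p = 1.14e-07, edgeR), and Sdk2, a synaptic adhesion protein, at 127, 209.6, 147 and 189 (adjusted p = 4.32e-05, edgeR), both higher in each SI library. Gpc5, a heparan sulfate proteoglycan, rose from 186 to 302 and from 334 to 426 CPM (adjusted p = 2.41e-05, edgeR), and here RunSI stayed below SedGH. Gpc5 is also among the markers used here for astrocytes, and their part was not tested.

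Adarb2, Erbb4 and Cdh9 were called lower in the unnamed layer in 3 of the 5 clusterings. Adarb2 was at 79.2 CPM in RunGH, 13.1 in RunSI, 44.5 in SedGH and 8.69 in SedSI, with ratios of -2.60 and -2.36 and a log2 change of -2.52 ± 0.18 (adjusted p = 4.52e-42, edgeR). Erbb4 was at 33.1, 16, 39.1 and 9.56 CPM (adjusted p = 4.4e-09, edgeR), and Cdh9 at 149, 87.9, 88 and 62.9 (adjusted p = 5.76e-06, edgeR). In Adarb2 and Erbb4 both GH libraries were far above both SI libraries. The 6 other inhibitory markers summed to 19.1 plain CPM in RunGH, 19.5 in RunSI, 19.7 in SedGH and 13.7 in SedSI in these nuclei, and their part in these results was not tested.

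One cluster of the unnamed layer, cluster 18, came mostly from 1 library, with 122 nuclei in RunGH, 9 in RunSI, 2 in SedGH and 1 in SedSI. It was led by Ndst4, Abi3bp and Tenm3, and Adarb2 was among its leading genes. Without it 65 genes passed, 49 of them among the 88, and the log2 change of Adarb2 was -1.28 (adjusted p = 8.66e-05, edgeR) and that of Erbb4 -1.04 (adjusted p = 0.000597, edgeR). Among the genes that rose, Glis1, a zinc finger relative of Glis3, was at 28.1 CPM in RunGH, 44.3 in RunSI, 28.8 in SedGH and 52.7 in SedSI (adjusted p = 0.00104, and 0.00535 without the cluster, edgeR, called in 4 clusterings). Rhbdl3, a protein of the rhomboid family, was at 41.4, 67.0, 40.2 and 59.7 CPM (adjusted p = 0.00104, and 0.00194 without the cluster, edgeR, called in 4). Both SI libraries were higher in both genes. Of 9065 genes, 45 moved alike (0.496%) and 31 in opposite directions (0.342%).

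Fixed lists of genes gave the following counts in pyramidal neurons, where over all 13359 genes 3181 were higher in both pairs and 3175 lower in both. Among 23 measured activity-regulated genes none was called, 2 were higher and 8 lower in both pairs, with median ratios of -0.11 in the Run pair and -0.09 in the Sed pair. All 5 of the 6 measured neuropeptide genes that had the same sign in both pairs were lower, as were 6 of 12 monoamine receptors and 4 of 12 receptors of social peptides and stress hormones, with none higher and none called. Among 5 genes of neuregulin signalling Erbb4 was called, 2 were higher and 1 lower in both pairs. Among 42 synaptic adhesion genes none was called, 11 were higher in both pairs and 13 lower in both. Potassium channel subunits (12 higher and 11 lower of 32), GABA-A receptor subunits (4 and 6 of 12), calcium channel subunits (4 and 2 of 18), ionotropic glutamate receptors (4 and 1 of 16) and metabotropic ones (2 and 1 of 7) had no call. Of 15 measured glucocorticoid-responsive genes none was called, and Cdkn1a, a cell cycle inhibitor, moved alike and lower (4.02, 2.89, 5.55 and 3.62 CPM in RunGH, RunSI, SedGH and SedSI).

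Ribosomal and mitochondrial genes tended to the same sign. Of 52 ribosomal protein genes, 30 were higher in both pairs and 1 lower, with median ratios of 0.14 and 0.10, and of 13 mitochondrially encoded genes 9 were higher in both and none lower, with medians of 0.10 and 0.43. None was called, and mt-Nd4l moved alike (14.5, 19.9, 13.1 and 18.4 CPM in RunGH, RunSI, SedGH and SedSI). Their part in the other results was not tested. Of the remaining lists, 9 of 24 splicing genes, 4 of 10 astrocyte genes and 4 of 5 myelin genes were higher in both pairs with none lower in both, whereas 3 of 7 perineuronal net genes were lower in both with none higher. The oligodendrocyte markers summed in pyramidal nuclei to 98.1 plain CPM in RunGH, 109 in RunSI, 99.5 in SedGH and 110.4 in SedSI, higher in both SI libraries as was the share of oligodendrocytes, and their part was not tested. Presynaptic release genes (6 higher and 6 lower of 29), postsynaptic scaffold genes (1 and 6 of 19), chaperone genes (4 and 8 of 17), circadian clock genes (7 and 3 of 18), nuclear-retained RNAs (7 and 2 of 13), abundant cytoplasmic mRNAs (7 and 6 of 30) and microglial genes (1 and 3 of 8) had members of either sign.

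For most pyramidal genes that moved in opposite directions the GH libraries were the extremes. By the definition, SedGH or RunSI must lie at an end of such a gene and RunGH or SedSI at the other. Of the 55 pyramidal genes higher in the Run pair and lower in the Sed pair, SedGH was the highest library for 51 and RunGH the lowest for 50. Of the 14 with the reverse signs, SedGH was the lowest library for 14 and RunGH the highest for 12. SedGH was also the shallowest library. RunGH lay between SedSI and RunSI in total UMIs, but its median nucleus held 3396.5 UMIs against 3600 in SedSI and 4033 in RunSI, so that by this measure both GH libraries were shallower than both SI libraries. The part of depth was not tested. With nuclei thinned to 1000 UMIs, 48 genes moved in opposite directions, of which 17 were among the 69. Thinning dropped nuclei under 1000 UMIs, which only SedGH could hold, its minimum being 621 against 1272 or more in the other libraries. It also lowered the counts, so that fewer genes could reach 50 in a pair, and the overlap cannot show the part of depth.

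Those higher in the Run pair included genes at low levels. Gm49876 was at 1.44 CPM in RunGH, 2.74 in RunSI, 8.54 in SedGH and 4.15 in SedSI, and Slc4a9, an anion exchanger, at 3.06, 4.81, 7.26 and 3.74. Ptprz1, a receptor phosphatase that binds perineuronal net components, was at 17.5, 23.7, 19.5 and 13.2 CPM, and here RunSI was the highest library. Those higher in the Sed pair included the non-coding Dancr and Snhg17, both host genes of small nucleolar RNAs. Dancr was at 23.5 CPM in RunGH, 16.1 in RunSI, 8.75 in SedGH and 13.5 in SedSI, Snhg17 at 5.34, 3.61, 3.2 and 5.61, and the kinase gene Pim3 at 7.53, 5.23, 3.95 and 7.31. In Dancr and Pim3 RunGH was the highest and SedGH the lowest library. The interaction of maternal environment with housing, tested over 6 libraries, called 0 of 17989 pyramidal genes in edgeR (52 at an unadjusted p under 0.05) and 0 in DESeq2 (11 at an unadjusted p under 0.05). The only residual degree of freedom of that test is the maternal effect by cohort.

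**Figure D4:**
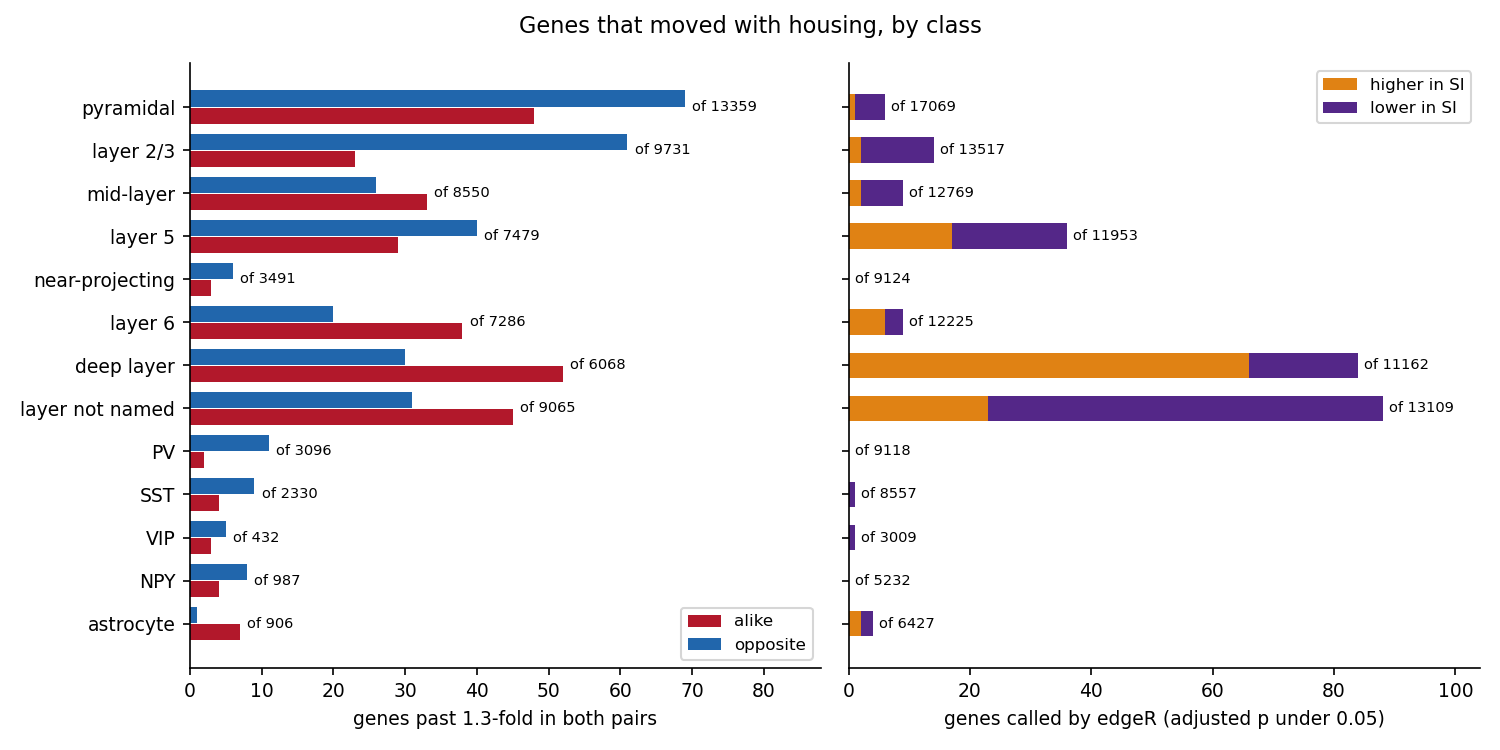
Number of genes (x axis) that were called, moved alike or moved in opposite directions in each of 13 classes (y axis). The unnamed layer and the deep layer class have the most calls (88 and 84) and the pyramidal class the most genes that moved in opposite directions (69), while PV, NPY and near-projecting nuclei have no call.

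In PV interneurons, no gene of 9118 passed in edgeR (0%), with 317 (3.48%) at an unadjusted p under 0.05. None passed in DESeq2 (0 at an unadjusted p under 0.05), and the edgeR count was 0 in each of the 5 clusterings. The class held 377 nuclei in RunGH, 368 in RunSI, 195 in SedGH and 164 in SedSI. Only 2 of 3096 genes moved alike (0.0646%). Rasgrf1, a Ras activator downstream of glutamate receptors, was at 189 CPM in RunGH, 248 in RunSI, 198 in SedGH and 279.6 in SedSI, with both SI libraries higher. Sdk1, a synaptic adhesion protein, was at 205, 151, 269.6 and 181 CPM, with both SI libraries lower. With plain library totals 1 gene moved alike, lower in SI. The fit of all 6 libraries called 0 as well, but 2 genes with SedGH of cohort 2 left out and 2 with SedSI left out.

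In PV nuclei, 11 genes moved in opposite directions (0.355%), 8 of them higher in the Run pair and 3 in the Sed pair, or 6 and 4 with plain library totals. Adarb2 was at 16.7 CPM in RunGH, 102 in RunSI, 127 in SedGH and 46.6 in SedSI, from 19, 133, 34 and 26 counts, with ratios of 2.60 and -1.45 and an interaction that was not called (adjusted p = 0.073, edgeR). It is far higher in VIP and NPY nuclei, where it was between 7067 and 19564 CPM. Tmtc2, a mannosyltransferase, was at 194, 316, 236 and 156 CPM, high in RunSI. Runx2, a transcription factor, was at 292, 211, 213 and 299 CPM, and with Phlda1 and Snhg20 it made up the 3 genes higher in the Sed pair.

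The interaction was called for 1 gene over all classes, Spon1 in PV nuclei, which encodes the matrix protein F-spondin. It was at 34.4 CPM in RunGH, 92.5 in RunSI, 56.2 in SedGH and 44.8 in SedSI, from 39, 121, 15 and 25 counts, so that RunSI alone was high. The ratio was 1.43 in the Run pair (95% interval 0.90 to 1.99) and -0.33 in the Sed pair (-1.31 to 0.70), the interaction 2.33 on the log2 scale and its adjusted p 0.0338 (edgeR). Spon1 was also among the 10 leading genes of 2 SST clusters, and the part of SST nuclei or their RNA was not tested. Over the fixed lists no member was called in PV nuclei. Of 33 synaptic adhesion genes with enough counts 8 were higher in both pairs and 7 lower, of 23 potassium channel subunits 3 and 5, of 13 ionotropic glutamate receptors 5 and 1, of 9 GABA-A receptor subunits 2 and 5, and of 13 postsynaptic scaffold genes 2 and 7, where over all 3096 genes 787 were higher and 761 lower in both.

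In SST interneurons, 1 of 8557 genes passed (0.0117%), and the count was 1 or 2 over the clusterings. Adarb2, called in all 5, was at 106 CPM in RunGH, 6.67 in RunSI, 78.6 in SedGH and 31.7 in SedSI, from 110, 7, 20 and 12 counts (log2 change -2.86 ± 0.36, adjusted p = 4.84e-05, edgeR). Both GH libraries were above both SI libraries, and the gene was again far below its level in VIP and NPY nuclei. In thinned nuclei and with free RNA subtracted it was not called. Zfp804b was at 92.6, 209, 102 and 132 CPM, both SI libraries being higher, and did not pass (adjusted p = 0.082, edgeR). The fit of all 6 libraries called 0 genes, with 2 when RunGH of cohort 2 was left out, 1 without SedGH or SedSI and 0 without RunSI, and DESeq2 called 0 (2 at an unadjusted p under 0.05). Of 2330 genes, 4 moved alike (0.172%), Dhx57, Trim33 and Syt14 higher and Jpx lower, and 9 in opposite directions (0.386%).

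The rarer interneurons were measured less precisely. In VIP nuclei, 1 of 3009 genes passed (0.0332%), Ptprt, a receptor phosphatase of synapse formation, at 831 CPM in RunGH, 446 in RunSI, 1106 in SedGH and 416 in SedSI (log2 change -1.09 ± 0.23, adjusted p = 0.00947, edgeR, called in 3 of 5 clusterings, but not with doublets removed or in thinned nuclei). Both SI libraries were below both GH libraries, and the class held only 42 to 114 nuclei per library. Over the clusterings the count in VIP nuclei was 0 or 1. Cntn1, Ntrk3 and Ptprt were the 3 of 432 genes that moved alike (0.694%), and 5 moved in opposite directions (1.16%). In NPY nuclei none of 5232 genes passed in edgeR (0%), with 249 (4.76%) at an unadjusted p under 0.05, and none in DESeq2 (2 at an unadjusted p under 0.05). The count in NPY nuclei was 0 in each of the 5 clusterings. Of 987 genes there, 4 moved alike (0.405%) and 8 in opposite directions (0.811%), and Ptprt moved alike and lower again, at 781 CPM in RunGH, 599 in RunSI, 1639 in SedGH and 1199 in SedSI.

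In astrocytes, 4 of 6427 genes passed (0.0622%), 2 higher and 2 lower, and the count ran from 1 to 15 over the clusterings. Lhfp, a tetraspan membrane protein on chromosome 3, was the one called in all 5, at 105 CPM in RunGH, 437 in RunSI, 109 in SedGH and 239 in SedSI. Both SI libraries were above both GH libraries, from 53, 212, 9 and 48 counts, and the log2 change was 1.89 ± 0.24 (adjusted p = 1.16e-11, edgeR). It was also called with cohort 1 in the fit (adjusted p = 2.43e-08, edgeR) and without the maternal term (adjusted p = 0.00146, edgeR), but not in DESeq2 (adjusted p = 1.00), and 4 gene models overlap it on its strand.

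The other calls in astrocytes rested on few counts. Tenm1, a teneurin of synapses, was at 69.6 CPM in RunGH, 12.4 in RunSI, 48.5 in SedGH and 9.97 in SedSI, from 35, 6, 4 and 2 counts (adjusted p = 0.0362, edgeR, called in 3 clusterings). Adarb2 was at 143, 47.5, 24.3 and 29.9 CPM (adjusted p = 0.0362, edgeR, called in 4), and Zfhx3, a transcription factor, at 45.8, 149, 109 and 84.7 (adjusted p = 0.0451, edgeR, called in 3). RunGH alone was high in Adarb2 and RunSI was the highest library in Zfhx3. The 6 inhibitory markers other than Erbb4 summed in these nuclei to 419 plain CPM in RunGH, 384 in RunSI, 314 in SedGH and 480 in SedSI, and the 7 pyramidal markers to 436, 398, 246 and 283, and their part was not tested. Of 906 genes, 7 moved alike (0.773%), among them Acss2, an acetyl-CoA synthetase, and Rplp1, a ribosomal protein, higher, and 1 in opposite directions (0.11%). The fit of all 6 libraries called 2 genes, but 0 without RunGH or RunSI of cohort 2, 3 without SedGH and 1 without SedSI.

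Shares of nuclei were compared through their ratios with intervals for counting error and no test, each group being 1 library a pair. Layer 5 nuclei were 7.26% of RunGH and 10.9% of RunSI, a ratio of 1.5 (95% interval 1.36 to 1.65), but 9.99% of SedGH and 7.72% of SedSI, a ratio of 0.773 (0.678 to 0.881). Layer 6 showed the reverse, with ratios of 0.863 (0.795 to 0.936) and 1.14, both with intervals off 1. PV nuclei had ratios of 1.14 (0.982 to 1.32) and 0.981 (0.792 to 1.21), both within counting error. Oligodendrocyte precursors had ratios of 1.48 (1.06 to 2.07) and 2.33 (1.19 to 4.79), and oligodendrocytes 1.25 (0.883 to 1.78) and 4.75 (2.56 to 9.50), from 66, 71, 13 and 53 nuclei in RunGH, RunSI, SedGH and SedSI. Astrocytes were at 0.915 (0.769 to 1.09) and 1.57 (1.19 to 2.09). The glial ratios of the Sed pair thus rest on a SedGH library with 13 oligodendrocytes, 14 precursors and 89 astrocytes. Without a minimum of UMIs per nucleus the ratio of oligodendrocytes was 14.6. That minimum kept 5826 of 5827 barcodes in SedGH but 4997 of 5687 in SedSI, so that the libraries of the Sed pair were not filtered alike. In the Run pair it kept 9936 of 10532 in RunGH and 8531 of 9342 in RunSI. Because oligodendrocytes, their precursors and microglia had fewer than 20 nuclei in SedGH, their genes were not tested. Genes that mark classes also differed between the groups (Npsr1 in layer 5, Cdh9 and Bmpr1b in the deep layer, Glis3 in layer 2/3), so that class shares and levels within a class are not independent of each other.

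**Figure D5:**
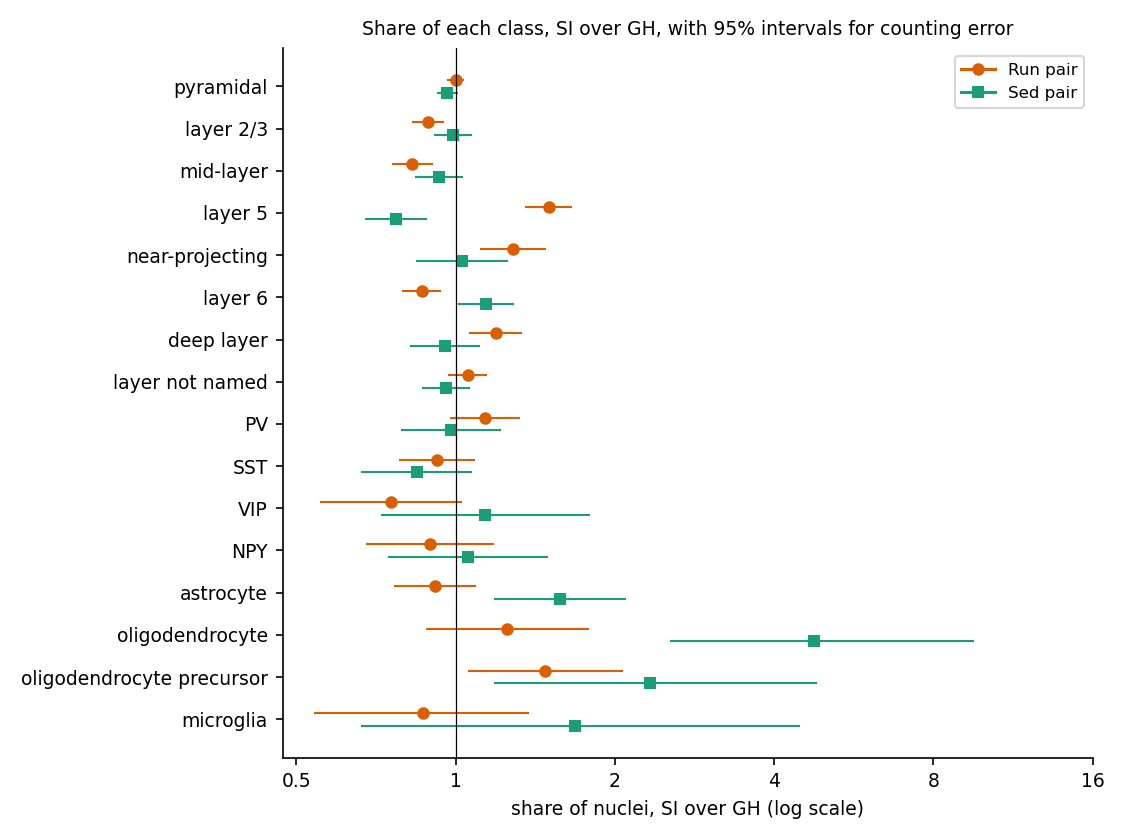
Ratio of the share of nuclei in SI over GH (x axis, log scale) by class (y axis), with 1 point per pair and its 95% interval. Layer 5 lies above 1 in the Run pair (1.5) and below 1 in the Sed pair (0.773), while both pairs lie above 1 for oligodendrocyte precursors (1.48 and 2.33).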

How the data were processed

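snRNA-Seq libraries of PL nuclei (10x Chromium 3′ V3, each a pool of 3 males) were aligned by the authors to mm10 with introns included, with Cell Ranger 6.0.0 per the submitters' processing notes, whereas the deposited matrix headers name version 4. The deposited values are raw UMI counts per gene and barcode in unfiltered matrices.

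Barcodes with 500 to 4000 genes and at most 1% mitochondrial counts were kept, following the limits of the study, and a minimum of UMIs per library (621 to 1587 in cohort 2) was added here. They were clustered by cohort in Scanpy 1.11.5 (Pearson residuals of 3000 genes, 35 components, 20 exact neighbours, Leiden resolution 0.6, or 1.5 for non-neuronal nuclei) and named from at least 3 fixed markers, and again from 4 other seeds, an alternative chosen after seeing the data. Doublets were kept, since Scrublet's own threshold marked none in 1 library, and the 6% of nuclei with the highest scores were removed as an alternative. Counts were summed per library and class with at least 20 nuclei in each library. Housing was tested with edgeR 4.0.16 in R 4.3.3 (quasi-likelihood, TMM, low counts filtered, maternal environment as a term, 4 libraries, 1 residual degree of freedom), and the interaction over 6 libraries with cohort as a term. DESeq2 1.42.0 was an alternative. Pair ratios are of CPM, with 0.5 in place of counts of 0 and exact 95% intervals that cover counting error only. Scripts were tested on simulated data.

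Named were, per class, up to 5 genes per direction (3 outside pyramidal and PV) that were called and moved alike, moved alike, or moved in opposite directions, with at least 100 counts, ordered by the smaller of the pair ratios, then list members and markers. Other genes were named after their values were seen. The comparison, lists and rules were chosen with earlier results of these data known. Promoter sequences are from RefSeq (GRCm38.p6).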

Additional observations from a re-analysis of the deposited data

Results flagged for a closer look

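The pairs moved apart for the genes counted below as moving in opposite directions: isolation went with a higher level in one maternal environment and a lower one in the other, each beyond counting error. Each value is the log2 ratio of SI over GH in the Run pair minus that in the Sed pair, so that a positive value means a higher ratio in the Run pair. With 1 library per group the difference was not tested within the 4 libraries. The interaction fitted over 6 libraries called none of the genes that moved in opposite directions, and the lowest adjusted p among those listed was 0.073, for Adarb2 in PV nuclei (edgeR).

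In pyramidal neurons, 69 genes moved in opposite directions, and the difference was 1.97 for Gm49876, 1.91 for 4930444F02Rik, 1.82 for Chil5, 1.61 for Slc4a9 and 1.40 for St8sia3os. It was -1.38 for Snhg17, -1.17 for Dancr, -1.41 for Pim3, -1.27 for Ramac and -1.09 for 2700069I18Rik. In layer 2/3, 61 genes moved in opposite directions, and the difference was 2.69 for Chil5, 1.37 for Nucb2 and 1.42 for Maml2. It was -1.83 for Tsr3, -1.88 for Ddit4l and -1.47 for Dancr. In the mid-layer class, 26 genes moved in opposite directions, and the difference was 1.65 for Gm34544, 1.51 for Akap12 and 1.64 for Ddx41. It was -1.42 for Mrpl41, -1.58 for Ppp1r8 and -2.13 for Mrps14. In layer 5, 40 genes moved in opposite directions, and the difference was 2.74 for Unc5d, 1.81 for Ino80b and 1.89 for 6530403H02Rik. It was -1.29 for A330102I10Rik, -1.34 for Snhg20 and -1.38 for Zfp955b.

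In the near-projecting class, 6 genes moved in opposite directions, and the difference was 1.43 for Gm48321, 1.21 for Chd3 and 1.20 for Syt5. It was -1.43 for Asb3. In layer 6, 20 genes moved in opposite directions, and the difference was 1.66 for Gm16599, 1.34 for Itgbl1 and 1.52 for Gm16183. It was -1.87 for Abi3bp, -1.75 for Herc6 and -0.96 for Edil3. In the deep layer class, 30 genes moved in opposite directions, and the difference was 1.82 for Gm37459, 2.05 for Gm49876 and 1.59 for 4932443L11Rik. It was -1.79 for Jcad, -1.66 for Pdrg1 and -1.44 for Gga3. In the unnamed layer, 31 genes moved in opposite directions, and the difference was 1.78 for Ptk7, 1.40 for Pkp2 and 1.3 for Gm28750. It was -1.50 for Trpc4, -1.41 for Fmnl1 and -1.61 for Asb6.

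In PV interneurons, 11 genes moved in opposite directions, and the difference was 4.05 for Adarb2, 2.04 for Gm15520, 1.23 for 1700111E14Rik, 1.3 for Tmtc2 and 1.12 for Gm15478. It was -0.96 for Runx2, -1.83 for Phlda1 and -1.21 for Snhg20. In SST interneurons, 9 genes moved in opposite directions, and the difference was 1.19 for Nt5c2, 1.48 for Gm11418 and 1.70 for Ldb2. It was -1.63 for Ssbp4, -1.24 for Tmem191c and -1.40 for Gm10419. In VIP interneurons, 5 genes moved in opposite directions, and the difference was 1.44 for Magi3 and 0.81 for Grm7. It was -1.98 for Nfib, -1.57 for Ppm1h and -1.08 for Hs6st3. In NPY interneurons, 8 genes moved in opposite directions, and the difference was 1.63 for March1, 1.40 for Gm20642 and 1.80 for Chd3. It was -1.06 for 5330434G04Rik.

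In astrocytes, 1 gene moved in opposite directions, and the difference was 1.49 for Itgav.

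Spon1 in PV interneurons had an interaction of 2.33 on the log2 scale that passed the test over 6 libraries (adjusted p = 0.0338, edgeR), although its ratio in the Sed pair was within counting error (-0.33). The share of layer 5 nuclei in SI over GH was 1.5 in the Run pair and 0.773 in the Sed pair, and that of layer 6 nuclei 0.863 and 1.14, and the difference was not tested.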

How the results depend on the processing

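The 6 pyramidal calls became 0 in the fit of 6 libraries, without the maternal term, in DESeq2 and with free RNA subtracted, 1 with log-normalized clustering, 10 with plain library totals, 14 without the small clusters, 15 without doublets, 24 without a minimum of UMIs and with one mix of clusters in each library, 28 in thinned nuclei, 57 with a lower limit of 1000 genes and 75 with no filter on low counts. With the other clustering seeds they became 21, 16, 36 and 21. Leaving out 1 library of cohort 2 was possible only in the fit of 6 libraries and gave 0 to 0 pyramidal calls, 0 to 2 in PV, 0 to 2 in SST and 0 to 3 in astrocytes. The PV count of 0 was 2 with the limit of 1000 genes. The 1 SST call became 0 with 6 libraries, in DESeq2, in thinned nuclei and with free RNA subtracted, and 2 with DESeq2's size factors, with no filter, at 1000 genes, with log-normalized clustering and with each other seed. The 4 astrocyte calls became 2 with 6 libraries, in thinned nuclei and with the first other seed, 1 without the maternal term, in DESeq2, with no filter, without doublets and with the second seed, 0 at 1000 genes and 15 with the remaining seeds. Counts of the layer classes moved by over 1.5 times too: with doublets removed layer 5 went from 36 to 1, all 36 keeping their direction, and near-projecting from 0 to 10, in thinned nuclei the deep layer went from 84 to 1, the unnamed layer from 88 to 19 and the mid-layer from 9 to 0, with plain totals layer 6 went from 9 to 47 and the mid-layer to 2, and with free RNA subtracted layer 6 went to 51 and the mid-layer to 19. The other seeds, the mix of clusters and the small clusters were chosen after seeing the data.

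The 48 pyramidal genes alike became 32 in thinned nuclei, of which 10 were shared, 25 at 200 counts, 20 at 1.5-fold and 581 with no fold minimum. The 69 opposite ones became 121 with free RNA subtracted, 39 at 200 counts, 8 at 1.5-fold and 670 with no fold minimum. Their split, 55 higher in the Run pair and 14 in the Sed pair, was 53 and 22 with plain totals, 43 and 27 at 1000 genes, 46 and 26 with one mix of clusters and 29 and 19 in thinned nuclei. In PV nuclei the 2 alike became 6 at 1000 genes, 1 with plain totals, in thinned nuclei, with log-normalized clustering and at 200 counts, 0 at 1.5-fold and 24 with no fold minimum. The 11 opposite became 3 at 1000 genes, 4 in thinned nuclei and at 1.5-fold, 2 at 200 counts and 43 with no fold minimum.

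Without a UMI minimum, share ratios of the Run pair were 0.950 for layer 6, 0.999 for the deep layer, which reversed, and 1.19 for the unnamed layer. Those of the Sed pair were 0.889 for pyramidal, 0.896 for layer 2/3, 0.787 for the deep layer, 3.04 for astrocytes, 14.6 for oligodendrocytes, 4.84 for their precursors and 14.2 for microglia. At 1000 genes those of the Run pair were 1.63 for astrocytes, 2.20 for oligodendrocytes and 2.44 for precursors. Those of the Sed pair were then 1.16 for layer 2/3, 0.567 for layer 5, 1.88 for near-projecting, 1.32 for layer 6, 0.760 for the unnamed layer, 1.62 for PV, 1.29 for SST, 6.25 for VIP, 33.0 for astrocytes and 10.8 for precursors. The median nucleus of SedGH held 952 genes, against 1726 to 1949 in the other libraries of cohort 2. The limit of 1000 genes thus removed most SedGH nuclei, and these ratios rest on those that remained. With log-normalized clustering the deep layer was at 1.05 in the Run pair and the unnamed layer at 1.08 in the Sed pair, and with the other seeds the unnamed layer was at 1.14, 1.15, 1.15 and 1.20 in the Run pair. The causes of these shifts were not tested.

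Of 59 called genes named by the rule, 3 passed with 6 libraries, 1 without the maternal term, 3 in DESeq2, 16 in thinned nuclei, 48 with free RNA subtracted, 56 with plain totals, 45 without doublets and 44, 48, 49 and 39 with the other seeds. Without the small clusters, fitted only for pyramidal, deep layer and unnamed layer nuclei, 15 of these genes still passed and 17 kept their direction without passing. Among these 59 the only direction that reversed was that of Hs3st4 in the deep layer without the small clusters (-0.062), where 70 of the 75 deep layer calls still tested kept theirs. No paired analysis was possible by replicate number because each group is 1 library and the numbers name no shared animal. The pairs compared are formed by rearing, through the maternal term. The shallow SedGH library, pools of 3 mice and 1 residual degree of freedom limit every result.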
